A study of Mus musculus with 13 samples.

Results

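Small RNA captured on streptavidin was set against total small RNA from the same kind of cell, differentiated HOXB8 cells, with 1 library on each side. HOXB8 cells are a mouse myeloid progenitor line that an estradiol-regulated HOXB8 protein keeps dividing, and they mature towards neutrophils once estradiol is gone. All 18385 unique sequences of the small RNA table were taken, 15419 of them with reads in at least one of the compared libraries, and they were described by RNA class, annotated record and read length. The pair makes 2 of the 13 samples of the series, which holds poly(A) RNA-seq of neutrophils besides the small RNA libraries.

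The biotin library came from cells kept in medium without estradiol (0 µM) and with 100 ng/ml SCF. For 36 h they were fed 100 µM Ac4ManNAz, 10 µM Gal and 100 µM GalNAc. Their RNA was reacted with DBCO-PEG4-biotin and pulled down with streptavidin. The input library came from differentiated cells treated in the same way, taken before the pull-down as gel-purified RNA under 300 nt. The labels give that size limit for the inputs alone, so gel selection and capture cannot be told apart as sources of any difference in length. The undifferentiated biotin and input libraries, which serve as a second pair, were fed alike and grown with 1 µM estradiol. HOXB8 cells are 1 line, and no label names separate cultures.

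Ac4ManNAz enters the cell's sialic acid pathway and leaves an azide on sialylated glycans. A cyclooctyne such as DBCO reacts with that azide, so streptavidin retains what carries the sugar together with whatever binds the beads or stays with bound molecules. Work with this chemistry gave rise to the term glycoRNA for small RNAs that carry sialylated N-glycans. Small RNA libraries of this kind also hold fragments of ribosomal RNA, tRNA, small nucleolar RNA (snoRNA) and microRNA (miRNA). Ribosomal RNA is cut from a long 45S precursor with an external spacer at each end and internal spacers between its mature parts. C/D snoRNAs guide methylation of ribosomal RNA, and carry a C box near the start and a D box near the end. A miRNA recognises its targets mostly by its seed, the bases from position 2 to 8.

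The sequences on which most of the difference rests are shown first. Reads were grouped by their last 12 bases, called an end here and written in capitals, because fragments with one 3′ end and many 5′ ends made up much of both libraries. The first lines are fragments that share one 28S rRNA end, in order of length.
28S, 25 bases: gatatagacagcaGGACGGTGGCCA
28S, 24 bases: atatagacagcaGGACGGTGGCCA
28S, 23 bases, with T1G: gatagacagcaGGACGGTGGCCA
28S, 22 bases: atagacagcaGGACGGTGGCCA
28S, 17 bases: cagcaGGACGGTGGCCA
28S, 51 bases: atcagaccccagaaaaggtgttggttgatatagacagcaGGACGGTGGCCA
The token T1G counts from 1 at the 5′ end of that read and names the record's base first. The read's letters equally fit the first line with adjacent internal bases left out, so T1G names only the alignment used. The next lines are the 5′ external spacer fragment, a second 28S fragment, and the 5.8S and 32-base rRNA fragments that were high in the input.
5′ external spacer, 21 bases: tcttagatcGATGTGGTGCTC
28S, 28 bases: tcctcgcgtcggggtcGGGGCACGCCGG
5.8S, 21 bases: tacgcctgtCTGAGCGTCGCT
rRNA, 32 bases: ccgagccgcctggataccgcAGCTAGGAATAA
The last lines are the snoRNA fragment that led the class in the input, the leading tRNA fragment, and both leading genome-placed sequences.
snoRNA, 26 bases: gagggagggaacgcAGTCTGAGTGGA
tRNA, 18 bases: gcattgGTGGTTCAGTGG
genome, chr7:81731500-81731515, reverse strand: agcgGAGTAGAGCAGT
genome, chrX:142215582-142215599, reverse strand: ttaagtAAGAGTATTTGG

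Depth and scale came first. The biotin library held 8047029 reads and the input library 3809355, so 1 read was worth 0.124 RPM (reads scaled to 1e+06 reads of the library) after biotin and 0.263 RPM in the input. The table kept 93.5% of the biotin reads and 70.2% of the input reads. A share of the table therefore sits lower by 0.41 on the log2 scale than the same ratio in RPM of the whole library, and both scales are given for classes. Intervals are exact 95% intervals (Clopper-Pearson for shares, the conditional binomial for ratios). They cover counting error alone, as 1 molecule may have given many reads, and no test between conditions can be made with 1 library a side.

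The biotin library was made of few sequences. Its 7 highest sequences held 70.1% of its table reads, against 22% for the 7 highest of the input. Only 3 sequences made up 50% of the biotin reads, while 41 did so in the input. The tail was long on both sides: 782 sequences covered 90% of the biotin reads and 1154 covered 90% of the input reads. Reads in both libraries were found for 7240 sequences, while 3581 had reads only after biotin and 4598 only in the input.

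Among the 840 sequences at 100 RPM or more in the higher library, 238 (28.3%) were 4-fold or more higher after biotin and 474 (56.4%) were 4-fold or more lower, on log2(RPM + 1). Their median log2 ratio was -3.01, and the median over the 3115 sequences with at least 10 reads in both libraries was 0.21. The excess of lower sequences depended on the scale and the minimum. Relative to the median of the 840, 325 were higher and 331 lower, and with a minimum of 10 RPM in place of 100 RPM 2833 were higher and 2592 lower. Of 485 rRNA sequences 141 (29.1%) were higher and 282 (58.1%) lower, near the shares of all 840. Of 74 snoRNA sequences 24 (32.4%) were higher and 48 (64.9%) lower. Some smaller classes lay further from the shares of all 840. Genome-placed sequences were even, with 21 higher and 21 lower of 44 (47.7% each). The 18 snRNA sequences had 3 (16.7%) higher and 15 (83.3%) lower. No precursor_RNA sequence of 14 was higher and 7 were lower.

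**Figure D1:**
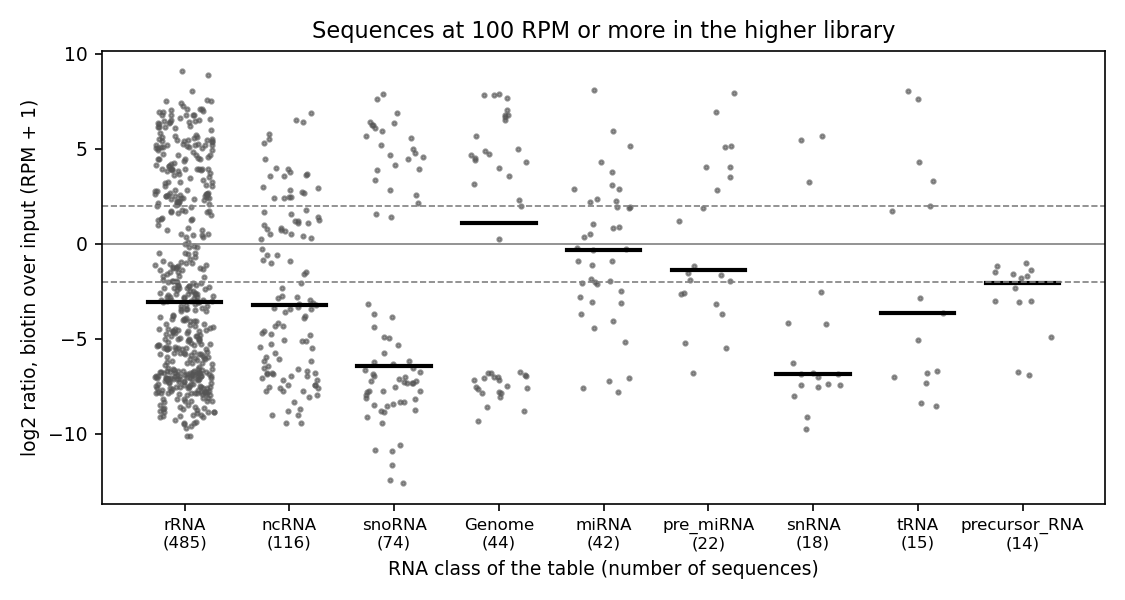
Log2 ratio of biotin over input RPM (vertical axis) for each sequence at 100 RPM or more in the higher library, by RNA class along the horizontal axis, with dashed lines at 4-fold and a bar at each class median, for 1 library a side. The snoRNA median lies at -6.46 and the genome-placed median at 1.09, and most classes hold sequences on both sides of 0.

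Summed over annotated records, the libraries were closer. Of 248 records at 100 RPM or more, 47 (19%) were 4-fold or more higher after biotin and 103 (41.5%) were lower, with a median log2 ratio of -1.20. The 38 snoRNA records had 20 higher and 17 lower, and the 26 pre_miRNA records 9 higher and 5 lower. None of the 51 rRNA records was 4-fold higher and 25 were lower.

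Class shares differed little for the classes named rRNA and miRNA and more for other classes. Ribosomal RNA held 61.9% of the biotin table and 67.0% of the input table, a log2 ratio of -0.11 that turned to 0.30 in RPM of the whole library (579019 RPM after biotin, 470281 RPM in the input). The miRNA class held 1.66% and 1.83%, and its sign turned in the same way. Only 6175 of its 15487 RPM after biotin, and 3893 of its 12872 RPM in the input, lay inside a RefSeq miRNA hairpin. The class share is therefore not a measure of miRNA. Genome-placed sequences, which the table puts on a chromosome and not on an RNA record, held 27.4% of the biotin table and 3.47% of the input table, which was 10.5-fold in RPM (10.4 to 10.6). The snoRNA class was 5.55-fold lower after biotin in RPM, with 1.51% of the biotin table (1.5 to 1.51) against 11.1% of the input table (11.1 to 11.2). The ncRNA class held 4.25% after biotin and 11.2% in the input.

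**Figure D2:**
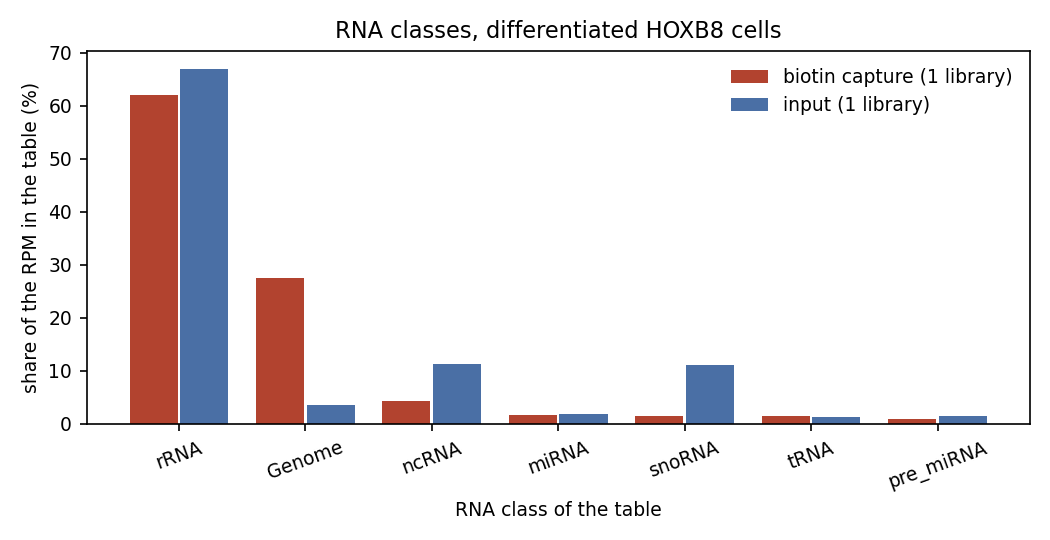
Share of the table's summed RPM in percent (vertical axis) held by each RNA class along the horizontal axis, with the biotin library (1 library) beside the input library (1 library) of differentiated cells. Genome-placed sequences hold 27.4% after biotin against 3.47% in the input, and snoRNA 1.51% against 11.1%.

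Read length weighted by reads separated the libraries. The biotin reads had quartiles of 17, 21 and 25 bases, against 18, 24 and 32 bases in the input. Over distinct sequences the order turned, with a median of 23 bases after biotin and 21 in the input. Reads of 20 to 25 bases made up 54.6% of the biotin table and 23.3% of the input table, and reads of 26 to 49 bases 6.22% and 38.9%. Single lengths stood out on each side. Length 16 held 24.0% of biotin reads against 7.62% of input reads, and length 25 held 24.0% against 2.0%. Length 17 held 3.16% against 12.6%, length 32 held 0.223% against 8.26%, and length 51 held 0.0282% against 2.76%. Without the 7 highest sequences of each library the medians were 21 bases after biotin and 24 bases in the input.

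Length went different ways by class. The median rRNA read had 24 bases after biotin and 29 in the input. In the snoRNA class the median was 29 bases after biotin and 24 in the input, and reads of 50 bases or more made up 41.8% of the class after biotin against 1.01% in the input. The median tRNA read had 18 bases in both libraries. Genome-placed reads were nearly all under 20 bases, 98.7% after biotin and 81.7% in the input.

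**Figure D3:**
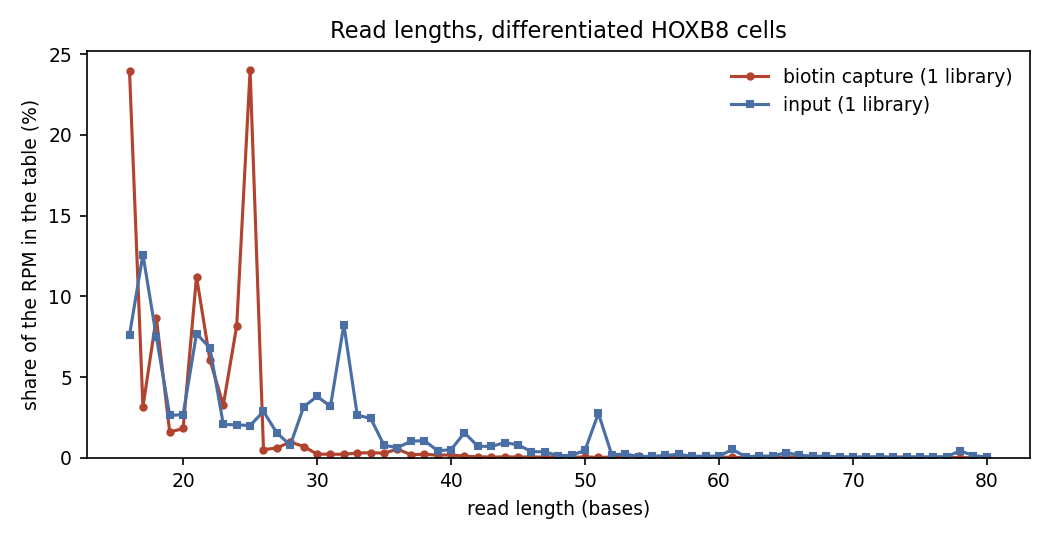
Share of the table's summed RPM in percent (vertical axis) at each read length in bases (horizontal axis, drawn to 80 bases), as one line for the biotin library and one for the input library of differentiated cells. Biotin reads peak at 16, 21 and 25 bases, while input reads spread from 16 to above 50 bases with peaks at 17, 32 and 51 bases.

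The higher and lower sequences also differed in composition, as a description. The 238 sequences higher after biotin had a median GC content of 65.0% and a median length of 22 bases, against 57.1% and 27 bases in the 474 lower ones. A run of GGGGG stood in 23 of the 238 and in 5 of the 474, and in 29 of all 840.

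The parts of the 45S precursor did not move together. The record carries no part names in the files, so the limits of its parts were set from general knowledge of the mouse precursor. The 28S rRNA, the large subunit's main RNA, summed to 394839 RPM after biotin and 137178 RPM in the input, 2.88-fold higher. Like the other parts, it counts reads of the 45S record alone and none that the table gives to other records or classes. The 5.8S rRNA, which pairs with 28S in the large subunit, summed to 9643 RPM after biotin and 101773 RPM in the input, 10.6-fold lower, and 48 of its 58 sequences at 100 RPM were 4-fold lower. The 5′ external spacer, which is removed in the nucleolus, summed to 127721 RPM after biotin and 25950 RPM in the input, 4.92-fold higher (4.89 to 4.95), with 13 of 16 sequences higher. Over all 840 sequences at 100 RPM, 28.3% were higher and 56.4% lower. The 18S part of this record, from the small subunit, had 3420 RPM after biotin and 4099 RPM in the input. It does not count 18S reads that the table gives to other rRNA records, so it is not the level of all 18S. Internal spacer 1 (17.6 against 2.36 RPM), internal spacer 2 (77.8 against 15.0 RPM) and the 3′ external spacer (38.9 against 2.10 RPM) were low in both libraries.

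**Figure D4:**
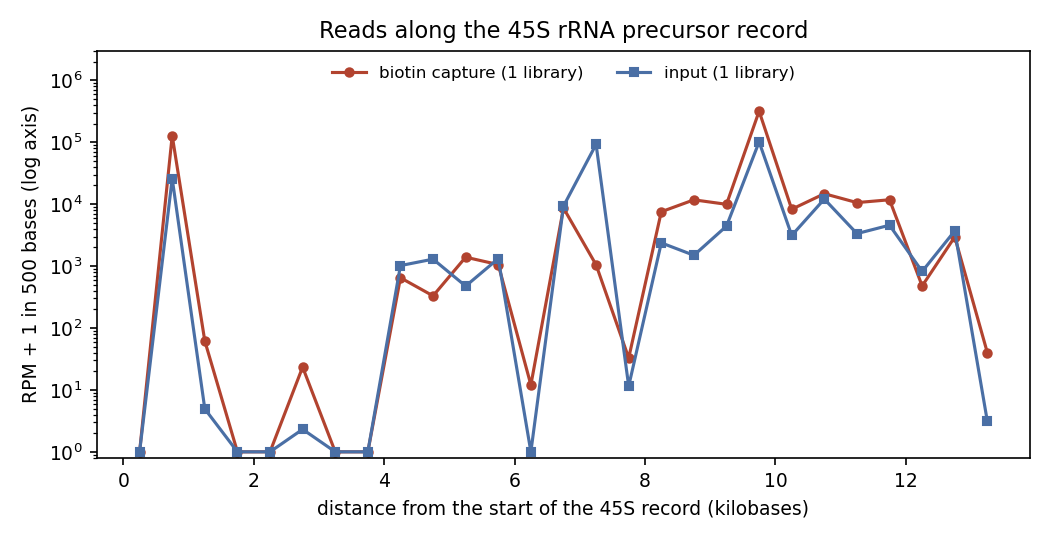
Summed RPM + 1 on a log axis (vertical) in bins of 500 bases along the 45S precursor record (horizontal axis, distance from the record's start in kilobases), with a biotin line and an input line for differentiated cells. Few bins hold most reads, with the biotin line above the input line at the highest bins of the 5′ external spacer and 28S, and the input line above it at 5.8S.

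Ribosomal records other than 45S were 4.65-fold lower after biotin, at 43263 RPM against 201261 RPM in the input. Of their 153 sequences at 100 RPM 18 were higher and 115 lower, against 28.3% and 56.4% of all 840 sequences. These records carry no part names, so 18S reads among them were not told apart.

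Within 28S one 3′ end held most of the change. The 295 sequences with the end GGACGGTGGCCA summed to 313650 RPM after biotin and 93865 RPM in the input, 3.34-fold higher, and made up 33.5% and 13.4% of the tables. The length of these fragments separated the libraries far more than their sum. Fragments of 22 to 25 bases made up 99.3% of the end after biotin (311404 RPM) and 2.52% in the input (2369 RPM). Fragments of 16 to 18 bases made up 0.404% after biotin and 34.8% in the input. Those of 40 to 50 bases made up 0.0524% and 29%, and those of 51 bases 0.00555% and 13.1%.

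The 25-base fragment alone had 214556 RPM after biotin and 1198 RPM in the input, 179-fold higher (174 to 184). The 24-base fragment, 1 base shorter at the 5′ end, had 66711 RPM after biotin and 763 RPM in the input, 87.4-fold higher. The 22-base fragment had 6627 and 133 RPM, 49.9-fold higher. The 23-base position broke the series. The fragment that matches the record there had 197 RPM after biotin and 42.5 RPM in the input, 4.63-fold higher, while the fragment with T1G had 19932 RPM after biotin and 36.2 RPM in the input, 550-fold higher (466 to 655). The letters of the T1G fragment are equally those of the 25-base fragment with adjacent internal bases left out. Which reading holds was not tested. All of these fragments end at base 9903 of the record.

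Shorter fragments of the same end were lower after biotin from 20 down to 17 bases. The 21-base fragment had 65.1 RPM after biotin and 45.7 RPM in the input. The 20-base, 19-base and 18-base fragments had 12.7, 54.3 and 170 RPM after biotin, against 160, 396 and 2731 RPM in the input. The 17-base fragment had 128 RPM after biotin and 28783 RPM in the input, 225-fold lower (211 to 239), although the 16-base fragment had 967 and 914 RPM. Among the long forms, the 41-base fragment had 31.8 RPM after biotin and 6651 RPM in the input, and the 51-base fragment 11.8 and 4589 RPM. The 43-base fragment had 6.96 and 3895 RPM, 560-fold lower. Among fragments of this end without a base change, the ratios printed here thus lay between 560-fold lower, at 43 bases, and 179-fold higher, at 25 bases.

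**Figure D5:**
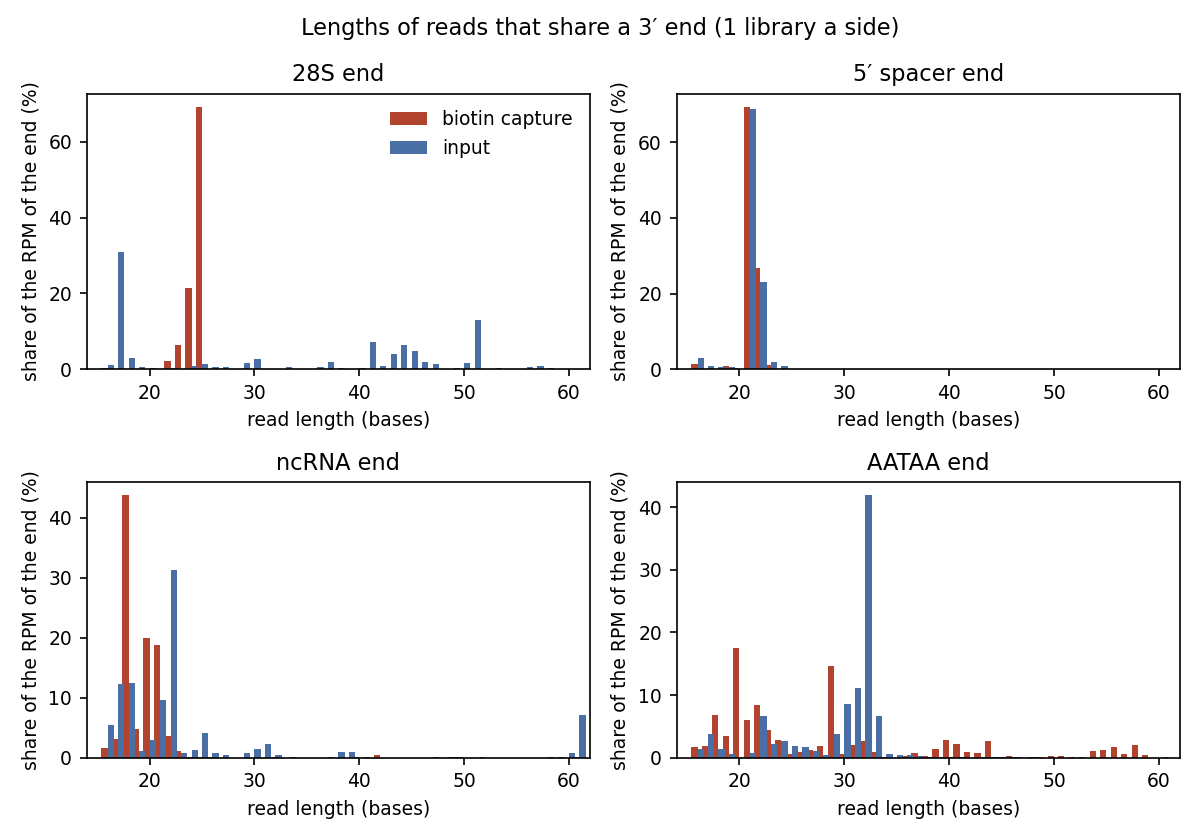
Share in percent of the RPM of one 3′ end (vertical axis) at each read length in bases (horizontal axis, cut just above 60 bases), biotin beside input, for the 28S, 5′ external spacer, ncRNA (TGGAGCCGGGCG) and AGCTAGGAATAA (AATAA in the plot) ends of differentiated cells. The 28S end is at 22 to 25 bases in 99.3% of biotin reads and in 2.52% of input reads.

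Other 28S ends lay on both sides. Of 247 28S sequences at 100 RPM 102 were higher and 112 lower, against 28.3% and 56.4% of all 840 sequences. The 21 sequences with the end GGGGCACGCCGG had 5905 RPM after biotin and 134 RPM in the input, 43.9-fold higher, most of it in the 28-base fragment (4492 against 97.4 RPM, 46.1-fold). A 34-base fragment, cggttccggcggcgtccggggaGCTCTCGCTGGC, had 712 RPM after biotin and 0.525 RPM in the input. Its ratio rests on 2 input reads and was 1356-fold with an interval from 375 to 11202. Its level was far lower in the other capture libraries of differentiated cells that are given at the end. The end CGGAGCGGGAGG had 2507 and 350 RPM, 7.17-fold higher. In the other direction, the end GAACGGGCTTGG had 298 RPM after biotin and 2202 RPM in the input, 7.39-fold lower, and the end ACAAGGGTTTGT 284 and 2041 RPM, 7.18-fold lower.

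The spacer fragment kept its form while its level was higher. The 96 sequences with the end GATGTGGTGCTC had 129043 RPM after biotin and 27055 RPM in the input, 4.77-fold higher, with a median length of 21 bases in both libraries. The 21-base fragment, from the 5′ external spacer, had 86566 and 18130 RPM. The 22-base fragment, ctcttagatcGATGTGGTGCTC, had 33450 and 6099 RPM, 5.48-fold higher. A 23-base fragment starting tctcttagatc had 0.124 RPM after biotin and 265 RPM in the input, while the one starting actcttagatc had 1323 and 233 RPM. Sequences of this end that lie inside the RefSeq hairpin of Mir5099 (GRCm38.p6, chromosome 12, 36816205 to 36816278) had 3393 RPM after biotin and 1087 RPM in the input, so that gene's reads cannot be told from spacer reads.

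Both rRNA ends with the most input reads were lower after biotin. The 112 sequences with the 5.8S end CTGAGCGTCGCT had 1274 RPM after biotin and 97069 RPM in the input, 76.2-fold lower. Its 21-base fragment had 97.2 and 13722 RPM. The 204 sequences with the end AGCTAGGAATAA had 4171 RPM after biotin and 130775 RPM in the input, 31.4-fold lower. The 32-base fragment had 113 RPM after biotin and 53950 RPM in the input, 479-fold lower, and the 22-base fragment 352 and 8625 RPM, while the 20-base fragment gataccgcAGCTAGGAATAA had 730 RPM after biotin and 157 RPM in the input.

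Over all classes, 6817 ends were found. The 34 ends at 2000 RPM or more in either library held 82.7% of the biotin table and 84.2% of the input table, and 9 of them were 4-fold or more higher after biotin and 17 lower.

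The ncRNA class, a mixed class in the table, was led by one end whose ratios also varied with fragment length. The 87 sequences with the end TGGAGCCGGGCG, of the ncRNA, rRNA and genome classes, had 13840 RPM after biotin and 41668 RPM in the input. Of these, 75 were in the ncRNA class, with 13763 and 41565 RPM. The 22-base fragment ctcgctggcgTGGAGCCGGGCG had 497 RPM after biotin and 13002 RPM in the input, 26.2-fold lower. The 18-base fragment ctggcgTGGAGCCGGGCG had 5991 and 5105 RPM, and the 20-base fragment 2732 and 1146 RPM. The end GGACCCGAAAGA had 502 RPM after biotin and 10610 RPM in the input, and the end GACGCGCATGAA 2438 and 289 RPM.

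The snoRNA class fell into groups by 3′ end. The 114 sequences that end in CTGAGTGG, with or without one more A or T, came from 21 records and summed to 408 RPM after biotin and 75285 RPM in the input, 185-fold lower (178 to 191). All 47 of them at 100 RPM were lower, against 56.4% of all 840 sequences. They made up 2.90% of the class after biotin and 96.3% in the input. The 26-base fragment had 51.9 RPM after biotin and 11432 RPM in the input, 220-fold lower, and the 17-base fragment aacgcAGTCTGAGTGGA had 0.621 and 10097 RPM.

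The other snoRNA sequences were higher after biotin, 13672 RPM against 2897 RPM in the input, 4.72-fold (4.63 to 4.81). Of 27 at 100 RPM 24 were higher and 1 lower, against 28.3% and 56.4% of all 840 sequences. Summed over records without the CTGAGTGG ends, 20 of 24 records were higher and 3 lower, with a median log2 ratio of 3.99. Of all 248 records, 19% were higher and 41.5% lower. The highest of these ends had 3148 RPM after biotin and 117 RPM in the input, 26.8-fold higher, in 10 sequences of 5 records.

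The C box of C/D snoRNAs has the letters TGATGA, searched on the read's own strand. The motif stood in 48.1% of the 551 snoRNA sequences and in 1.82% of all 18385 sequences. Sequences of the class that hold it had 11485 RPM after biotin and 1519 RPM in the input, 7.56-fold higher, and 20 of 22 at 100 RPM were higher. Those with CTGA, the letters of the D box, at a later position had 5631 and 466 RPM, 12.1-fold higher. The CTGAGTGG ends also hold the letters CTGA and were lower, so CTGA by itself does not mark the higher reads. Other ends without TGATGA had 2201 RPM after biotin and 1645 RPM in the input, 1.34-fold higher, and 4 of 5 at 100 RPM were higher. Reads of the class with 50 bases or more had 5882 RPM after biotin and 789 RPM in the input, 7.46-fold higher, with 14 of 15 higher. Of all 840 sequences at 100 RPM 28.3% were higher. These snoRNA groups share sequences, so their counts are not independent. The 17-base read gttctGTGATGAGGCTC, which holds the motif, had 854 RPM after biotin and 294 RPM in the input.

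The snRNA class and other small classes held sequences on both sides. The snRNA class had 2770 RPM after biotin and 6572 RPM in the input, although cgttcgCGCTCTCCCCTG had 1308 and 138 RPM, 9.51-fold higher. Some snRNA sequences carried the CTGAGTGG ends of the snoRNA group. Without those ends the class had 2770 RPM after biotin and 5615 RPM in the input. SRP RNA, the RNA of the signal recognition particle, held 0.0994% of the biotin table and 0.229% of the input table, although of its 4 sequences at 100 RPM 2 were higher and 1 lower. Within it cctctgCCTCCCAAGTGC had 12.2 RPM after biotin and 955 RPM in the input, whereas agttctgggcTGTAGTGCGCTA had 360 and 47.0 RPM. The first of these reads thus held 955 of the class's 1606 RPM in the input. Its end stood in 30 records of several classes, among them snRNA and tRNA. That read therefore does not name SRP RNA, and the lower share of the class rests largely on it. Y RNA, small RNAs bound by the Ro protein and a class often named in glycoRNA work, had 10.4 RPM after biotin (84 reads) and 3.68 RPM in the input (14 reads), 2.84-fold higher (1.60 to 5.42). In undifferentiated cells it had 0 RPM after biotin and 3.47 RPM in the input, and it had 0 RPM in the lectin and PNGase F libraries of differentiated cells that are given at the end. RNase P RNA, which trims the 5′ end of tRNA precursors, had 0 reads after biotin, which allows up to 3 reads (0.373 RPM), and 72 reads in the input (18.9 RPM).

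The tRNA class was 1.65-fold higher in RPM after biotin (13683 against 8275 RPM) and rested on one fragment. The 18-base sequence had 9102 RPM after biotin and 2792 RPM in the input, 3.26-fold higher (3.19 to 3.33), which was 66.5% of the class after biotin and 33.7% in the input. All other tRNA sequences together had 4581 RPM after biotin and 5484 RPM in the input. A sequence 1 letter apart, gcatttGTGGTTCAGTGG, had 792 and 202 RPM. One further record stood out, with 995 RPM after biotin and 2.36 RPM in the input. Its reads atccggGTGCCCCCTCCA (474 against 0.788 RPM, 602-fold, 206 to 2918) and tccggGTGCCCCCTCCA (456 against 1.31 RPM) end in CCA, the 3′ terminus that is added to tRNAs after transcription. Over the class, however, sequences ending in CCA had 1480 RPM after biotin and 1199 RPM in the input. In the other direction, tagtgGTTAGGATTCGG had 0.124 RPM after biotin and 429 RPM in the input.

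The higher share of genome-placed sequences after biotin rested on very few short reads. The chromosome 7 sequence had 192251 RPM after biotin and 6041 RPM in the input, 31.8-fold higher, and lies on the reverse strand (mm10) within the bounds of the long non-coding RNA gene Gm42400. The chromosome X sequence had 41961 and 1441 RPM, 29.1-fold higher. A read 1 base shorter, taagtAAGAGTATTTGG, placed at chr11:27502519-27502535, had 4863 RPM after biotin and 233 RPM in the input, 20.9-fold higher. At 16 to 18 bases a read can match many places, as these neighbouring reads on different chromosomes show, so a placement does not name the source gene.

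The next genome-placed read, ggcgGATGTGGCGAAG at chr9:108669972-108669987 within the bounds of Slc25a20, had 2712 RPM after biotin and 234 RPM in the input, 11.6-fold higher. Without the 2 highest, the class had 22000 RPM after biotin and 16911 RPM in the input, 1.3-fold higher. Its sequences of 20 bases or more had 3425 RPM after biotin and 4460 RPM in the input, lower after biotin. Gene bounds held 1991 of the 3226 genome-placed sequences. The reference at hand gives gene bounds without exons, so exon, intron and UTR are not stated.

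One set of genome-placed reads was nearly limited to the input. The 109 sequences that start with CGATC, or with CGATC after A or GA, had 3.36 RPM after biotin and 3916 RPM in the input, 1167-fold lower. In 54 of them the letters after CGATC are the end of another class's sequence at 100 RPM or more in the input, and these had 1.86 and 2415 RPM. The read cgatccagcaGGACGGTGGCCA at chr10:69115467-69115488 carries the 28S end after CGATC and had 0 reads after biotin and 144 RPM in the input. Against a floor of 3 reads per library it was at least 387-fold lower. CGATC is also how the 5′ adapter of the small RNA kit ends, and the part of the adapter in these reads was not tested.

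The miRNA reads give the clearest named genes of the table, whose title says non-miRNA, so only a part of the miRNA reads may stand in it. The mature sequences with the leading changes follow, from RefSeq (GRCm38.p6), with the seed in capitals.
miR-181a-5p: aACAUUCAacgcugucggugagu
miR-27b-3p: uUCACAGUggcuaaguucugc
miR-92a-3p: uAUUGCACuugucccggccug
miR-25-3p: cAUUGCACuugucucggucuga
miR-21a-5p: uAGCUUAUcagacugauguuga
miR-223-3p: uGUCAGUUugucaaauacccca
let-7f-5p: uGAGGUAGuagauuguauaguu
let-7a-5p: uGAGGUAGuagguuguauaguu
miR-24-3p: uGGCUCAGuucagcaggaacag
miR-92a-3p and miR-25-3p share the seed AUUGCAC, and let-7f-5p and let-7a-5p share GAGGUAG.

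Of the table's sequences 287 lie inside a RefSeq hairpin, and these summed to 12489 RPM after biotin and 7307 RPM in the input. These sums include 3421 and 1093 RPM of Mir5099, whose reads cannot be told from 5′ spacer reads. Equality with a whole mature miRNA was found for 67 sequences (4621 against 3421 RPM). Sequences were grouped by the hairpins they fit, and 29 groups, Mir5099 among them, reached 100 RPM. Of these, 7 were 4-fold or more higher after biotin and 2 lower, and the median log2 ratio was 0.22. The 7 of 29 lie near the share of all sequences (28.3%) and of all records (19%) that were higher.

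Mir181a reads, from a miRNA known for its role in lymphocyte development, had 1164 RPM after biotin and 16.5 RPM in the input, 70.4-fold higher (55.0 to 91.7). Mir27b reads had 538 and 23.4 RPM, 23.0-fold higher. The reads that fit both Mir92-1 and Mir92-2 had 160 and 3.94 RPM, and those that fit Mir92-1 alone 793 and 107 RPM, 7.40-fold higher. Mir25, which shares their seed, had 1124 RPM after biotin and 287 RPM in the input, 3.91-fold higher. Mirlet7b (111 against 8.93 RPM), Mirlet7d (135 against 24.7 RPM) and Mir191 (222 against 42.3 RPM) were also higher.

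Other miRNAs were lower after biotin. Mir21a, abundant in activated myeloid cells, had 214 RPM after biotin and 893 RPM in the input, 4.17-fold lower. Mir223, a marker of the granulocyte lineage, had 263 and 530 RPM, 2.02-fold lower. Mir20a had 23.5 and 110 RPM, 4.66-fold lower, and Mir30e 84.4 and 313 RPM, 3.71-fold lower. Some were near even, with Mir142, a miRNA of blood cells, at 138 RPM after biotin and 119 RPM in the input and let-7a reads at 144 and 153 RPM. Reads with the shared GAGGUAG seed therefore lay on both sides, from let-7b higher to let-7f (123 against 304 RPM) lower.

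These markers also check the cells. The myeloid list (Mir223, Mir142, Mir21a, Mir146a, Mir155 and let-7) had reads for 6 of 6, at 1694 RPM after biotin and 2784 RPM in the input. Mir155 had only 0.525 RPM in the input, under the floor of 3 reads (0.788 RPM). The erythroid Mir451a and Mir144, the neuronal Mir124 and Mir9 and the embryonic stem cell Mir302 and Mir290 to Mir295 clusters had 0 reads in both. The lymphoid Mir150, the muscle Mir1a and Mir133a and the liver Mir122 had no hairpin in the reference used, so they could not be looked up. The lymphoid marker Mir181a was present, at 1183 RPM after biotin and 32.6 RPM in the input over all reads that fit its hairpins. Mir223 stood 120-fold above the undifferentiated biotin library in the biotin library and 117-fold above the undifferentiated input in the input library.

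A group of genome-placed reads equals all or the first part of a mature miRNA with internal bases missing. The gap had up to 4 adjacent bases with at least 4 bases after it, and the start could lie up to 2 bases to either side in the hairpin. Such a match was found for 70 sequences and 32 mature miRNAs or groups of like miRNAs, and they summed to 2130 RPM after biotin (17142 reads) and 2.10 RPM in the input (8 reads), 1014-fold higher (515 to 2350). Reads were present for 59 of them after biotin and for 8 in the input. The other 62 had 0 reads in the input and stand in the table through reads of other libraries. The ratio and its interval therefore describe listed sequences only. Over the whole table, 3581 of 18385 sequences had reads after biotin and not in the input. The read tggctCAGTTCAGGAAC, placed at chr2:142647061-142647077, is the first part of miR-24-3p without 3 internal bases and had 282 RPM after biotin and 0.263 RPM in the input. The read tgaggtagTAGATTGTAGTT, placed at chr1:122759216-122759235, is let-7f-5p without 2 bases and had 222 RPM after biotin and 0 reads in the input, at least 282-fold higher against a floor of 3 reads. The read tgaggtagTAGGTTATAGTT, placed at chr2:43187891-43187910, is let-7a-5p without 2 bases and had 199 RPM after biotin and 0 reads in the input. Whole let-7f-5p reads in the same libraries had 92.2 RPM after biotin and 268 RPM in the input, lower where its shortened form was higher. Whole miR-24-3p reads had 71.3 RPM after biotin and 45.2 RPM in the input.

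The undifferentiated pair was made of separate libraries and gave the same directions in most places. Of its 794 sequences at 100 RPM or more, 341 (42.9%) were 4-fold or more higher after biotin and 336 (42.3%) lower, with a median log2 ratio of 0.46. There were 490 sequences tested in both pairs. Of these, 138 were higher in both, which is 58% of the sequences higher in differentiated cells and 40.5% of those higher in undifferentiated cells. Lower in both were 239, or 50.4% and 71.1%. None was higher in one pair and lower in the other. Across these 490 sequences the log2 ratios had a Pearson r of 0.967 and a Spearman rho of 0.959, as a description, since the sequences share libraries and overlap each other.

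Levels in the undifferentiated pair show the leading fragments again. The 25-base 28S fragment had 44262 RPM after biotin and 894 RPM in the input there, and the 17-base one 65.4 and 12715 RPM. Within the 28S end, fragments of 22 to 25 bases made up 98.3% after biotin and 4.34% in the input. The CTGAGTGG snoRNA ends had 400 RPM after biotin and 20831 RPM in the input. The miRNA deletion forms had 409 and 2.14 RPM, and the CGATC starts 0.627 and 4869 RPM. Mir181a reads had 329 RPM after biotin and 3.74 RPM in the input, and Mir25 reads 255 and 37.9 RPM.

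Some classes lay on the other side in undifferentiated cells, and tRNA had the most reads of these. In undifferentiated cells the leading 18-base tRNA fragment had 3726 RPM after biotin and 10090 RPM in the input, lower, where the differentiated pair had it higher. Its neighbour gcatttGTGGTTCAGTGG had 329 and 958 RPM there. The tRNA class held 1.04% after biotin and 7.18% in the input of undifferentiated cells.

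The captures with the lectin wheat germ agglutinin (WGA) and with biotin followed by digestion with PNGase F, an enzyme that removes N-glycans, were made from differentiated cells and share the same input, so they are given as levels. The 25-base 28S fragment had 196610 RPM in the WGA library and 212253 RPM in the PNGase F library, beside 214556 RPM after biotin. The 23-base fragment with T1G had 29059 and 19531 RPM there, beside 19932 RPM after biotin. The Mir181a reads had 983 RPM in the WGA library and 1315 RPM in the PNGase F library, beside 1164 RPM after biotin.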

How the data were processed

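Small RNA reads were counted per unique sequence by the authors and deposited as RPM, reads scaled to the library's total. Libraries were made with a TruSeq small RNA kit, per the labels' protocols, and mm10 is named in the submitters' processing notes. The aligner, the trimming, the row filter and the treatment of reads that match several places are not given in the sources used here. In the 4 main libraries each RPM value divided by the worth of 1 read gave a whole number to within 0.01, and these whole reads were used for intervals. The other deposited tables were not used here.

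With 1 library a side no test was made. Log2 ratios used RPM + 1, and a sequence or record counted as higher or lower at 4-fold or more among those at 100 RPM or more in the higher library. Intervals are exact at 95% (scipy 1.17.1, with numpy 2.4.6, pandas 2.3.3 and matplotlib 3.10.9 under Python 3.11.15). The scripts were tested on simulated data. Records carry RNAcentral identifiers with no gene names, so the lists of tRNA by amino acid, spliceosomal snRNA, C/D and H/ACA snoRNA, vault and 7SK RNA could not be applied. Classes at 1% or more of either table, the highest sequences of each library, the extreme ratios and the highest records were the named members by rule. Members and lists were chosen with earlier results of these data known. The 3′ ends, the CGATC starts, the miRNA deletion forms and the CTGAGTGG ends were chosen after their values were seen. MiRNA names come from a match of 16 bases or more inside a RefSeq hairpin (GRCm38.p6, the same assembly as mm10).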

Additional observations from a re-analysis of the deposited data

Results flagged for a closer look

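The share of tRNA in the table differed in direction between the pairs. Its log2 ratio of biotin over input was 0.31 in differentiated cells (1.46% after biotin, 1.18% in the input) and -2.79 in undifferentiated cells (1.04% after biotin, 7.18% in the input). With 1 library in each place the difference between the cells was not tested.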

How the results depend on the processing

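No paired analysis was possible because the biotin and input groups share only 1 replicate number. Log2 class ratios follow, and the cause of each move was not tested. Counted by distinct sequences they were -0.22 for genome, 0.20 for rRNA, 0.11 for snoRNA, -0.48 for tRNA and -0.0919 for ncRNA. At 20 bases or more they were -0.64 for genome, 0.21 for miRNA, 0.29 for rRNA, -0.15 for tRNA, -1.54 for ncRNA, -0.10 for pre_miRNA and -2.38 for snoRNA. As shares of all reads they were 0.27 for miRNA, 0.30 for rRNA, 3.39 for genome, -0.99 for ncRNA, -0.25 for pre_miRNA, -2.47 for snoRNA and 0.73 for tRNA. Without the 10 highest sequences of each library they were 1.26 for miRNA, 0.0351 for ncRNA, 0.75 for pre_miRNA, 0.85 for genome, -0.0285 for rRNA, -1.25 for snoRNA and 0.14 for tRNA. With 10 reads or more they were 2.99 for genome and -0.65 for pre_miRNA. In alternatives chosen after seeing the data, snoRNA had 1.66 without the CTGAGTGG ends, tRNA -0.665 without its highest sequence, genome 0.37 without its 2 highest, and rRNA -0.54 without the end of the highest biotin sequence. The 238 higher and 474 lower sequences became 2833 and 2592 at 10 RPM, and 5142 and 3822 with no minimum. The 47 and 103 records became 206 and 246 at 10 RPM, and 11 and 43 without each record's highest sequence. Table scaling, size factors and the other pseudocounts gave from 218 to 238 higher and from 462 to 491 lower sequences. Relative to the median of the tested sequences, chosen after seeing the data, they were 325 and 331. Median length over distinct sequences was 23 bases after biotin and 21 in the input. Depth differed, with 1 read worth 0.124 RPM after biotin and 0.263 RPM in the input, so ratios that rest on 1 or 2 input reads have wide intervals.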
